A study of Mus musculus with 12 samples.

Results

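HOXC9 is a homeodomain transcription factor of the posterior Hox group that gives motor neurons of the thoracic spinal cord their identity and represses limb-level programmes. In DNA the homeodomain of a central Hox factor, HOXC6 among them, reads TAAT best, and that of the posterior HOXC9 and HOXC10 reads TTTAT best. Hox factors bind DNA together with PBX and MEIS proteins, homeodomain cofactors of the TALE class, and the paired site of PBX with a posterior Hox factor reads TGATTTAT. Accessible chromatin, measured by ATAC-seq with a transposase that cuts open DNA, marks promoters, enhancers and other regulatory elements.

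The regions described here were accessible domains listed for cells with induced Hoxc9 and listed for none of the other groups of the series, called private iHoxc9 domains. They were chosen by the measured domain lists: a domain had to be at least 150 bp wide, to lie on chromosomes 1 to 19, X or Y of the iHoxc9 list, and to share no base with any domain, of any width, in the 5 other lists. This rule left 1598 of the 31062 iHoxc9 domains of that width, or 5.14% (95% Wilson interval 4.90 to 5.40), out of 234412 domains of that width in the 6 lists. Applied to each other list in turn, the same rule left 26.3% of the EB domains, 8.04% of the progenitor domains, 4.85% of the no Dox domains, 2.85% of the iHoxc6 domains and 2.81% of the iHoxc10 domains. The 1598 members and these shares follow from the rule and are a description without a test. At the width threshold, 147 private iHoxc9 domains were 140 to 149 bp wide and fell just outside it, and 87 were 150 to 159 bp wide and fell just inside.

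The mouse embryonic stem cells were of the Ainv15 background and carried a Dox-inducible gene in each line. Embryoid bodies (EB) received no patterning factors, and progenitors received retinoic acid (RA, 1 µM) and the Hedgehog agonist SAG (0.5 µM) for 2 days; both came from the Ainv15(iCre) line, without Dox. The iHoxc6, iHoxc9 and iHoxc10 groups came from the Ainv15(iFlag.Hoxc6), Ainv15(iFlag.Hoxc9) and Ainv15(iFlag.Hoxc10) lines, received RA and SAG for 4 days, and expressed the Flag-tagged factor under 3 µg/mL of doxycycline (Dox) for the last 48 h. The no Dox group was also taken after 4 days of RA and SAG but came from the iHoxc6 line, so induction of Hoxc9 and the line that carried it cannot be told apart. There were 2 samples per group, and the 1 list of a group was made from both of them. No replicate error and no test between groups could therefore be had, read depth was unknown, and the intervals below cover only the counting of domains or motif matches, not variation between samples. Because a domain absent from a list can be closed chromatin or a region below the limit of detection, the iHoxc9 domains are called private to their list and not to the cells.

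The sequences of a few members are printed as examples, picked by set rules and not as typical of the class. All are given on the plus strand of GRCm38, 5′ to 3′, in lower case, with capitals for the posterior Hox core (TTTAT on the plus strand, ATAAA where it lies on the minus strand) and for the PBX string TGATTTAT or its reverse complement, which holds that core. The first pair is from the members of at most 300 bp outside annotated exons with the most posterior cores. The domain on chromosome X held 8 of them in 298 bp, 5 on the plus and 3 on the minus strand. The narrow domain on chromosome 12 held 6 in 166 bp and lay 1501 kb from the start of Flrt2, a gene for a cell-surface ligand of latrophilins, the nearest protein-coding gene.
Intergenic, nearest gene Efhc2, chrX:17130291-17130588: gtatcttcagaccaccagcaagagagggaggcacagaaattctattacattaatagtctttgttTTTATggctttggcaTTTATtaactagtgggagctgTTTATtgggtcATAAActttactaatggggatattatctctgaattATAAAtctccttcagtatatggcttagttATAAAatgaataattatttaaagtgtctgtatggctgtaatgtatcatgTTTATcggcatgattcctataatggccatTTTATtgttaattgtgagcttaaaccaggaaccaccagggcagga
Intergenic, nearest gene Flrt2, chr12:94191582-94191747: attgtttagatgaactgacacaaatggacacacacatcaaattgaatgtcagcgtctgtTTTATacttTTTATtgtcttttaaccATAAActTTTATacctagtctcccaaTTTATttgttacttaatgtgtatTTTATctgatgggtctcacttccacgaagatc

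The next pair shows the PBX string at 2 copies per domain. In the intergenic domain on chromosome 1 the copies lay on opposite strands among 6 posterior cores, and the nearest protein-coding start, that of Brinp3, was 1034 kb away. In the domain on chromosome 2, 5.56 kb from the start of Sp9, a zinc-finger gene of the developing forebrain and limb, both copies lay on the minus strand a few bases apart and took up 2 of its 3 posterior cores.
Intergenic, nearest gene Brinp3, chr1:147528981-147529225: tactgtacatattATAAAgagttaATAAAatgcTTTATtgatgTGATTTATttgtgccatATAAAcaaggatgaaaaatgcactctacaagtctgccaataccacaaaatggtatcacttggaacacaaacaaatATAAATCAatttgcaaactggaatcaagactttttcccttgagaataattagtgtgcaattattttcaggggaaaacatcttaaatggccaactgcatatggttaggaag
Intergenic, nearest gene Sp9, chr2:73266231-73266498: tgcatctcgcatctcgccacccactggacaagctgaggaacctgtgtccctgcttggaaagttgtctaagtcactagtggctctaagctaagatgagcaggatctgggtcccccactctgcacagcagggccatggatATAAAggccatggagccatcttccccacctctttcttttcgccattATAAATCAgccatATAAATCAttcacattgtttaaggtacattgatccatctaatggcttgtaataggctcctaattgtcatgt

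The next 3 members lay near motor neuron genes from lists chosen for the tissue. The member closest to the start of such a gene, 5.67 kb inside Onecut2 in an intron, held 0 posterior and 2 central cores and is not printed. A 263 bp domain in an intron of Ebf2, a transcription factor gene expressed in developing motor neurons, held 2 posterior and 8 central cores. A 298 bp domain in an intron of Foxp2, a forkhead gene, held 3 posterior and 6 central cores. The domain 96.1 kb from the start of Isl1, a LIM homeodomain gene needed for motor neuron identity, was 175 bp wide, with 1 posterior and 3 central cores. The last sequence, in an intron of Dysf, is shown for contrast: it held neither core, and the nearest domain of another list was 20.7 kb away.
Intron of Ebf2, chr14:67283472-67283734: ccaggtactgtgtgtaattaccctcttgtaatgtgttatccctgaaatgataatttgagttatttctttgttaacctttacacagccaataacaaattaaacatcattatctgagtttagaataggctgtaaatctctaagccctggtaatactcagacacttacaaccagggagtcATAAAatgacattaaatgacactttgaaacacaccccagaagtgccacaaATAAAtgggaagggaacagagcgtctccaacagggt
Intron of Foxp2, chr6:14976827-14977124: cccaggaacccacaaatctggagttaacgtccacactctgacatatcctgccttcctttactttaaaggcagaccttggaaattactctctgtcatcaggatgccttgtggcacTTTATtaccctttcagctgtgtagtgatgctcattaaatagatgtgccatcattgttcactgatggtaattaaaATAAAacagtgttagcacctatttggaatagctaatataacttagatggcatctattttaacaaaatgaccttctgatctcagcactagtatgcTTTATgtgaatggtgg
Intergenic, nearest gene Isl1, chr13:116405720-116405894: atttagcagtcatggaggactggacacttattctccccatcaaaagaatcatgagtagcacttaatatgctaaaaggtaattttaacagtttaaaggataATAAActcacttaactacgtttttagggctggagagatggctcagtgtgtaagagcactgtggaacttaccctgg
Intron of Dysf, chr6:84040228-84040459: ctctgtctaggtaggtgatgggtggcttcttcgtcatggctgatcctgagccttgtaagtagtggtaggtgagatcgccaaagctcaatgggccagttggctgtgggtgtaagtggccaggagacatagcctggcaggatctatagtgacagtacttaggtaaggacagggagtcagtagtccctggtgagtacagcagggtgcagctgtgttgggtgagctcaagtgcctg

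The posterior Hox core was denser in the members than in the DNA around them and was present in most of them. TTTAT, counted on both strands, occurred 3611 times in the 425 kb of the members, or 8.50 times per kb (exact Poisson interval 8.23 to 8.78). In windows of equal width centred 5 kb to either side it occurred 5.22 times per kb, a ratio of 1.63 (1.56 to 1.70). Of the members, 1391 held at least 1 core (87.0%, Wilson interval 85.3 to 88.6), against 64.9% of the flanking windows and 44.9% of the 29464 other iHoxc9 domains of at least 150 bp. The members were low in GC, with a median of 41.9%, close to the 40.5% of their flanking windows, so composition differed little in the local comparison.

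Against the other iHoxc9 domains the density of the posterior core was 4.93 times as high (4.76 to 5.10), and most of that difference went with base composition. At equal GC content, compared in bins of 5 percentage points, the ratio was 1.57. The members were above the other domains in each of the 6 bins with at least 20 members, from 12.6 against 6.01 matches per kb at 30 to 35% GC to 2.58 against 1.15 at 55 to 60% GC, where 23 members remained. In the bin with the most members, 40 to 45% GC, 554 members had 8.23 matches per kb (7.78 to 8.71) and 3535 other domains had 5.38 (5.26 to 5.50). The plot of core density by GC content shows the members falling with GC throughout, the other domains falling from 7.28 at 35 to 40% GC onwards, and the members on top in every bin.

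**Figure D1:**
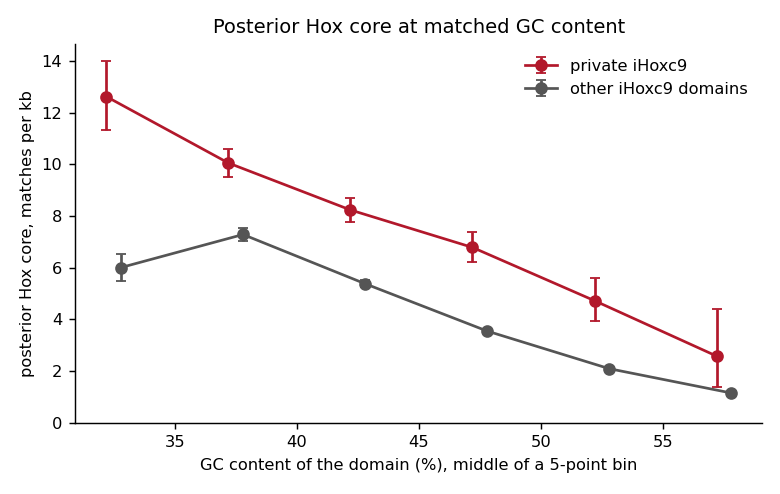
Posterior Hox core matches per kb (y axis) in private and in other iHoxc9 domains, by GC content in 5-point bins (x axis, percent); bars are 95% exact Poisson intervals of the match counts. Private domains had more matches in all 6 bins, for example 6.78 against 3.55 per kb at 45 to 50% GC.

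The core was concentrated at the middle of the members. In the central 100 bp it had 10.8 matches per kb, and beyond 800 bp from the centre it had 5.59, while the AT content was 59.5% and 59.6% at these distances. The central Hox core TAAT rose less, from 10.9 to 13.9 matches per kb. Private iHoxc10 domains, found by the same rule in the iHoxc10 list, had 4.92 posterior cores per kb in their central 100 bp against 3.90 beyond 800 bp. Private iHoxc6 domains, induced for a central factor, had 3.16 against 4.21, below their surroundings, and their central core had 11.3 against 8.44. Of the 5 other classes profiled, domains that iHoxc9 shared with the iHoxc10 list alone had the values closest to the members, with 9.32 against 5.05 posterior cores per kb.

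**Figure D2:**
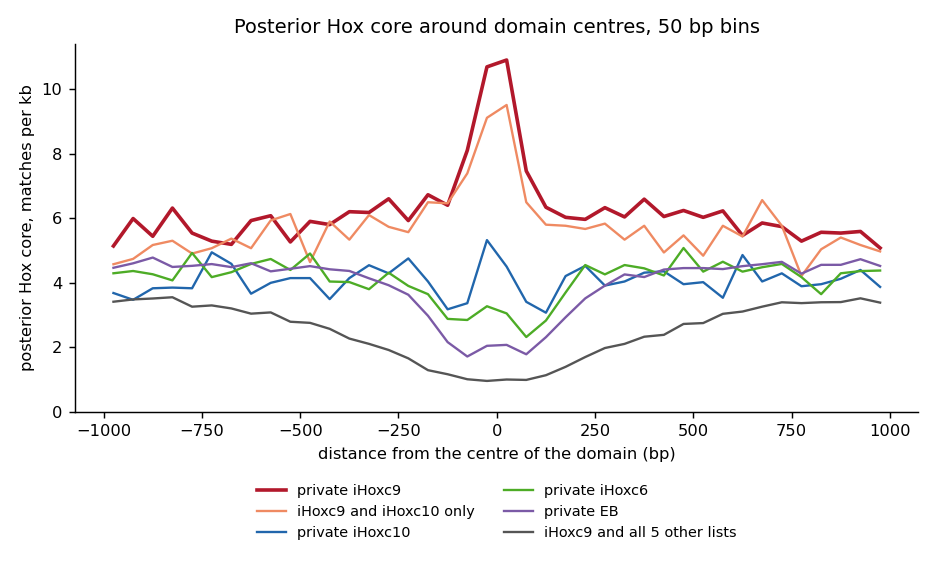
Posterior Hox core matches per kb (y axis) in 50 bp bins by distance from the domain centre in bp (x axis), for private iHoxc9, iHoxc10, iHoxc6 and EB domains, for iHoxc9 domains shared with iHoxc10 only and for iHoxc9 domains in all 6 lists. Private iHoxc9 domains peaked at the centre, at 10.8 per kb over the central 100 bp, whereas iHoxc9 domains in all lists had a trough of 0.979 per kb.

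Relative to windows 5 kb away, the ratio of 1.63 in the members stood above that of every other private class. It was 0.988 (0.910 to 1.07) in the 950 private iHoxc10 domains, 0.655 (0.602 to 0.712) in the 1173 private iHoxc6 domains, 0.642 in both private progenitor and private no Dox domains and 0.400 in private EB domains. These classes were richer in GC than their flanking windows by more than the members were: the median was 47.1% in private iHoxc10 domains, 46.6% in private iHoxc6 domains and 51.0% in private EB domains. The 603 domains held by iHoxc9 and iHoxc10 only had a ratio of 1.46 (1.36 to 1.57), and the 358 held by iHoxc9 and iHoxc6 only had 1.35 (1.23 to 1.49). The interval of the members did not overlap those of these classes except at its edge with the domains shared with iHoxc10, where 1.56 lay just under 1.57.

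Among all iHoxc9 domains the core was graded with the number of other lists that held the domain. Posterior cores fell from 8.50 per kb in the members to 6.78, 5.53, 4.79 and 3.69 in domains held by 1, 2, 3 and 4 other lists, and to 0.927 in the 19192 domains held by all 5. Median GC content rose along the same series, from 41.9% to 44.2, 45.7, 46.5, 47.8 and 61.8%, and median width rose from 237 to 533 bp. Their part in the gradient of the core was not tested beyond the GC bins above.

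**Figure D3:**
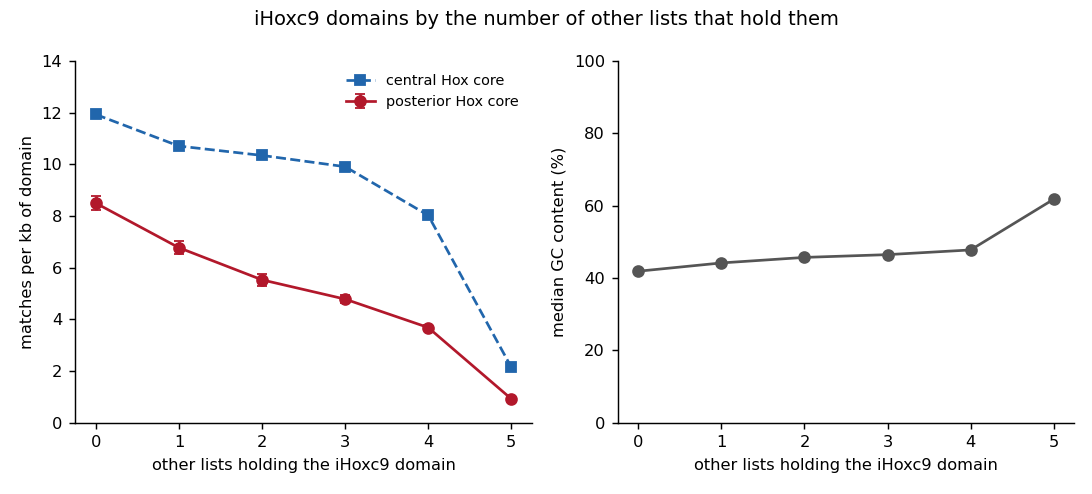
Left, posterior and central Hox core matches per kb (y axis) in iHoxc9 domains by the number of other lists that hold them (x axis), with 95% exact Poisson intervals for the posterior core; right, median GC content in percent. Core density fell from 8.50 per kb at 0 other lists to 0.927 at 5, and GC content rose from 41.9% to 61.8%.

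Strings of the same composition differed with the order of the letters. Of 4 other arrangements of the same 5 letters, chosen after the data were seen, TTTTA had a ratio to the flanking windows of 1.18 (1.12 to 1.23), TTATT 1.08, TATTT 0.745 and ATTTT 0.683, all below the 1.63 of TTTAT. The shorter core TTAT gave 1.22. Relative to other iHoxc9 domains at equal GC content the same arrangements gave 1.33, 1.17, 0.973 and 0.821, against 1.57.

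Members often held several cores. There were 207 members with none, 409 with 1, 388 with 2, 284 with 3 and 310 with 4 or more. The last group made up 19.4% of the members, 9.20% of the flanking windows, 5.45% of other iHoxc9 domains, 3.58% of private iHoxc10 domains and 1.19% of private iHoxc6 domains. Both the posterior and the central core were present in 1256 members (78.6%), and 49 (3.07%) had neither, compared with 27.8% of other iHoxc9 domains. In 6 width classes from 150 bp upwards, core density lay between 8.13 and 9.11 per kb, the latter (8.23 to 10.0) at 500 bp or more, and the ratio to flanking windows lay between 1.52 and 1.71. The member with the most, 12 posterior cores in 533 bp with 1 PBX string, lay in intergenic DNA on chromosome 8 (chr8:30458367-30458899), 0.035 kb from the nearest EB domain.

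Relative to the flanking windows, the paired site of PBX with a posterior Hox factor showed a larger ratio than the core. TGATTTAT occurred 155 times in 145 members (9.07%, 7.76 to 10.6), while 1.78% of flanking windows and 3.41% of other iHoxc9 domains held it. Its density was 5.17 times that of the flanking windows (3.81 to 7.08). The ratio was 2.92 (1.69 to 5.13) in private iHoxc10 domains and 1.38 (0.714 to 2.62) in private iHoxc6 domains. Domains shared with another induced list alone had ratios inside the interval of the members, 5.27 with iHoxc10 and 5.83 with iHoxc6. At equal GC content the members had 1.56 times the density of TGATTTAT in the other iHoxc9 domains, no higher than the 1.57 of the core. Strings for PBX with a central Hox factor (TGATTAAT) and with an anterior one (TGATTGAT) had ratios to flanking windows of 2.56 (1.57 to 4.20) and 2.60 (1.57 to 4.33). The MEIS string TGACAG had a ratio of 1.49 (1.31 to 1.69) and was in 23.7% of members and 16.8% of flanking windows. The density of this MEIS string in the members was 1.096 times that of the other iHoxc9 domains at equal GC content.

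The largest ratio among the 24 strings searched was that of TTTACGA. This sequence is preferred by caudal-type factors and by HOX13 factors, which belong to the posterior group. It was in 50 members (3.13%) and in 0.563% of flanking windows, a ratio of densities of 5.55 (3.18 to 10.1), whose interval overlapped that of the PBX string. In domains shared by iHoxc9 and iHoxc10 only, 36 matches gave a ratio of 9.0 (4.11 to 22.4), and in private iHoxc6 domains 5 matches gave 0.832 (0.230 to 2.54). At equal GC content it was 2.54 times as dense in the members as in other iHoxc9 domains, the highest such ratio of the 24 strings.

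E-boxes, sites of neurogenic basic helix-loop-helix factors, were also denser in the members than nearby, as in other private classes. CAGCTG had a ratio of 2.62 (2.24 to 3.08) in the members, 2.45 in private iHoxc6, 1.70 in private iHoxc10, 2.32 in private no Dox, 2.06 in private EB and 1.47 (1.31 to 1.64) in private progenitor domains. CAGATG had 1.53 in the members and 1.81 in private iHoxc6 domains. AGGTCA, bound by nuclear receptors such as those for RA, had 1.60 (1.39 to 1.85) in the members. Relative to other iHoxc9 domains at equal GC content, the members had ratios of 0.995 for AGGTCA, 1.07 for CAGCTG and 1.20 for CAGATG. The intervals of AP-1 (TGANTCA, 1.01), RFX (GTTGCC, 1.04) and forkhead (TGTTTAC, 0.843) strings spanned 1 in the members, and NFY (CCAAT) was below it, at 0.876 (0.800 to 0.959).

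**Figure D4:**
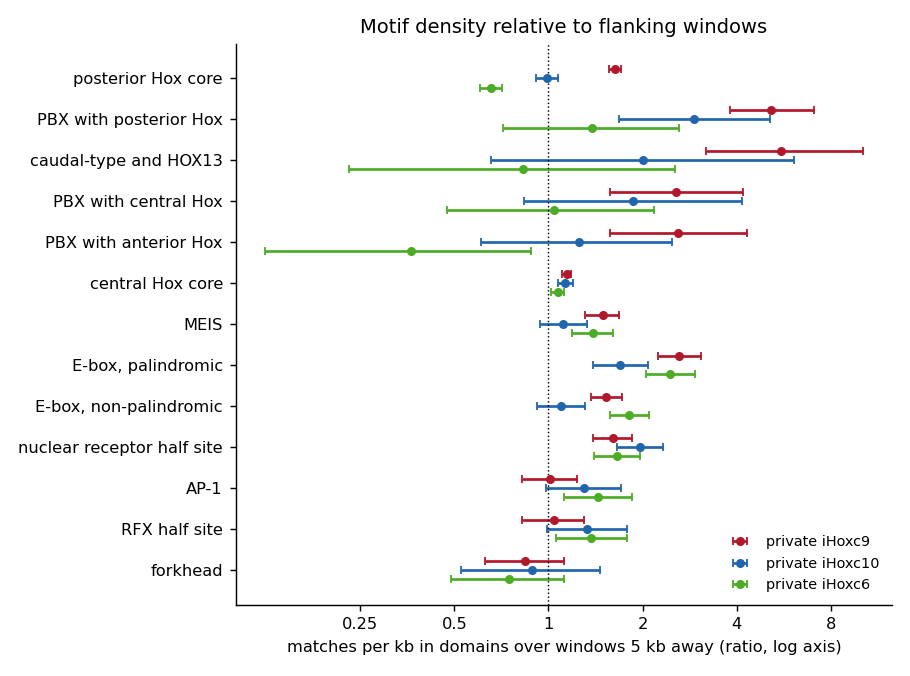
Ratio of motif matches per kb in the domains to those in windows 5 kb away (x axis, log scale, no unit) for 13 strings (y axis) in private iHoxc9, iHoxc10 and iHoxc6 domains; bars are 95% intervals for match counts and the dotted line marks a ratio of 1. The 3 classes separated at the posterior Hox core, with 1.63, 0.988 and 0.655, and lay close together at the central Hox core, with 1.14, 1.13 and 1.07.

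Without choosing strings beforehand, all 6-letter strings with at least 100 matches in the members were ranked by the same ratio. TTTACG ranked first of 1445, at 4.03 (2.92 to 5.63), followed by TTTATG (3.27, 1339 matches), TTATGG (3.09), GATTTA (2.92) and GCCATA (2.66). TTTATG holds the posterior core, the first string is the start of the caudal-type string, and GATTTA is part of the PBX string. CAGCTG was next at 2.62, followed by CCATTA (2.33), CATTAA (2.19), GCAGTA (2.07) and CAATAA (1.96). In private iHoxc6 domains the ratios of TTTACG and TTTATG were 0.604 and 0.775, and in private iHoxc10 domains 2.43 and 1.39.

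The members lay far from the starts of protein-coding genes. Only 10 (0.626%, 0.340 to 1.15) had their centre within 1 kb of the start of a protein-coding gene, against 37.0% of other iHoxc9 domains, and 959 (60.0%, 57.6 to 62.4) were more than 100 kb from every such start, against 21.7%. The median distance was 141 kb in the members, 66.2 kb in private iHoxc10 domains, 70.4 kb in private iHoxc6 domains and 10.3 kb in other iHoxc9 domains. In domains that iHoxc9 shared with iHoxc10 or iHoxc6 alone it was close to that of the members, at 123 and 133 kb. Of these shared domains, 0.995% and 1.12% lay within 1 kb of a start, both inside the interval of the members. In private domains of the other lists the share over 100 kb from a start lay between 33.5%, in EB, and 43.9%, in progenitors, while the domains shared with iHoxc10 or iHoxc6 alone reached 56.1% and 58.4%. When the starts of all annotated genes, including non-coding ones, were counted, 17.8% of members remained over 100 kb away. No such share is given for the other iHoxc9 domains, so this value cannot be set against their 21.7%.

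**Figure D5:**
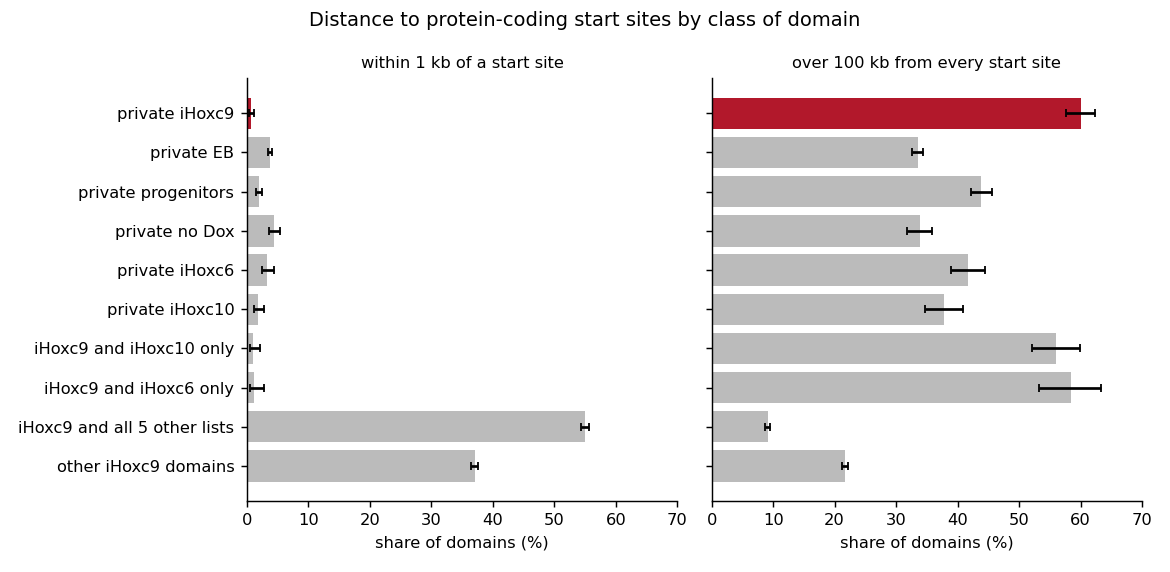
Share of domains in percent (x axes) within 1 kb of a protein-coding start site (left) and over 100 kb from every such site (right) for 10 classes of domain of at least 150 bp (y axis); bars carry 95% Wilson intervals for the counting of domains. Private iHoxc9 domains had the lowest share near starts, 0.626%, and the highest share far from them, 60.0%. Domains shared with iHoxc10 or iHoxc6 alone were close to these values, with 0.995% and 1.12% near starts and 56.1% and 58.4% far from them.

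By annotation, the centres of 823 members were intergenic (51.5%), 612 lay in introns of protein-coding genes (38.3%), 116 in introns of other genes, 24 in exons of protein-coding genes and 23 in exons of other genes. Of the other iHoxc9 domains 35.6% were intergenic and 27.9% lay in exons of protein-coding genes. The members were mostly unique sequence: the median share of repeat bases was 5.41%, and 1.44% of members were at least 50% repeat, compared with 1.31% of other iHoxc9 domains and 22.1% of private EB domains. They were narrow, with quartiles of 191, 237 and 304 bp, and 71 reached 500 bp. The widest, 986 bp on chromosome 1 (chr1:122501536-122502521), was intergenic, 934 kb from the start of Ddx18, and held 5 posterior and 11 central cores.

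By the rule no member overlapped a domain of another list, and the gaps to those domains are given as a description. The median gap to the nearest domain was 13.9 kb in EB, 13.1 kb in progenitors, 12.9 kb without Dox, 11.5 kb in iHoxc6 and 21.5 kb in iHoxc10, and to the nearest domain of any of the 5 lists it was 4.33 kb. In 343 members (21.5%) such a domain lay within 1 kb, and the smallest gap was 0 bp, between domains that touched without sharing a base. Another 435 (27.2%) had none within 10 kb. Posterior cores numbered 9.17 per kb (8.63 to 9.73) in members with a gap of 10 kb or more and 7.74 (7.17 to 8.35) in those under 1 kb, and median GC content was 41.0% in the former and 42.9% in the latter. The part of GC content in this difference was not tested. Members within 10 kb of one another formed 30 pairs and no longer run, and 1538 members had no other within that distance.

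The 12 genes nearest to the most members had long stretches of DNA nearer to them than to another gene, from 632 kb at Lrrn1 to 3705 kb at Pcdh9. The 1598 members had 1176 nearest protein-coding genes, of which 897 had 1 member, 190 had 2 and 89 had 3 or more. Nearness does not show which gene, if any, a domain acts on. Sel1l, for an adaptor of endoplasmic-reticulum-associated degradation, was nearest to 8 members, all at least 569.5 kb from its start and outside the gene (chr12:91806043-91849157), in a stretch of 1952 kb. Adgrl2, for a latrophilin, an adhesion receptor of synapses, was nearest to 7, of which 3 lay inside the gene (chr3:148815583-148990555). Its relative Adgrl3 (chr5:81020138-81825133) was nearest to 6, all in its gene body, with 24 posterior cores in 2457 bp, among them the third widest member (818 bp with 9 posterior and 19 central cores).

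Flrt2, for the ligand of these latrophilins, was also nearest to 6 members, the closest 659.7 kb away, and Lrrn1 (chr6:107529768-107570214), for a leucine-rich repeat membrane protein of neurons, to 6 with 21 posterior cores in 1481 bp, the closest 3.71 kb from its start. Cdh8, for a type II cadherin, was nearest to 6 in a stretch of 3449 kb. Pcdh9 and Pcdh10, for protocadherins, were nearest to 5 each, as were Trps1, for a zinc-finger transcription factor, Tmeff2, for a membrane protein, Got2, for a mitochondrial aminotransferase, and Nudt12, for a hydrolase. At Pcdh10 and Tmeff2 the members made up 50% of the 10 iHoxc9 domains nearest to the gene, and at Lrrn1 31.6% of 19. Over all iHoxc9 domains of at least 150 bp the share was 5.14%. High shares at these genes follow in part from choosing them by their number of members.

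Per length of the stretch nearest to a gene, the highest density among genes with at least 3 members was 1.94 per 100 kb at Iqcj, where the 3 members were the only iHoxc9 domains. Samd12 had 1.52 and Akain1, in a stretch of 293 kb with 4 members, 1.37. Hhip, for an antagonist of Hedgehog ligands, had 3 members at 0.767 per 100 kb, and Il5ra, for a cytokine receptor chain, had 4 at 0.733. The 4 members nearest to Il5ra all lay in introns of the protein-coding gene Cntn4, 120 to 367 kb from the start of Il5ra. Kif26b, for a kinesin-family protein, had 4 members inside its gene, 204 to 361 kb from its start. Adgrl2, by comparison, had 0.305 per 100 kb and Cdh8 0.174.

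By gene lists chosen for the tissue, 3 adhesion families were nearest to a larger share of the members than of the other iHoxc9 domains. Type II cadherins were nearest to 24 members (1.50%, 1.01 to 2.23), at 9 of 13 genes, against 0.329% of other iHoxc9 domains and 0.806% of the length of all such stretches. Latrophilins, teneurins and FLRTs were nearest to 27 (1.69%, 1.16 to 2.45), at 7 of 10 genes, against 0.305% and 0.640%. Delta protocadherins were nearest to 19 (1.19%, 0.762 to 1.85), at 6 of 10 genes, against 0.272% and 0.782%, a share whose interval included that of the genome. Private iHoxc10 domains were nearest to these 3 lists in 0.421%, 0.316% and 0 of 950 cases, the last with a Wilson upper limit of 0.403%. For private iHoxc6 domains the shares were 0.171%, 0.597% and 0.512%. Axon guidance genes were nearest to 20 members (1.25%, 0.812 to 1.93), against 0.947% of other iHoxc9 domains and 1.11% of the length. Both of these values lay inside the interval of the members. The shares of private iHoxc10 and private iHoxc6 domains nearest to axon guidance genes, 1.47% and 1.28%, were no lower than that of the members. Glutamate receptor genes were nearest to 12 (0.751%, 0.430 to 1.31), against 0.363% and 0.556%, the latter inside the interval. They were nearest to 0.421% of private iHoxc10 domains and to 0.938% of private iHoxc6 domains, the latter above the members.

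Genes of motor neuron and Hox biology were nearest to few members by count, with shares both above and below those of the other iHoxc9 domains. The motor neuron identity list, of 16 genes, was nearest to 5 members (0.313%, 0.134 to 0.730), against 0.221% of other iHoxc9 domains and 0.154% of the length of all stretches. Both of these values lay inside the interval. Of the 5 members, 3 belonged to Isl1, at 96.1, 173 and 510 kb from its start, 1 to Ebf2 and 1 to Onecut2. The list of motor column and pool genes was nearest to 3 (0.188%), at Foxp2 and at Nr2f2, against 0.462% of other iHoxc9 domains and 0.395% of the length. The TALE cofactor genes Meis1, Meis2 and Pknox2 were each nearest to 1 member, 136 to 406 kb from the start of the gene. The spinal interneuron list had 1 member, near En1, the pluripotency list 3 and the mesoderm and endoderm list 1, near Hand2, and each of these lists made up a similarly low share of the other iHoxc9 domains, from 0.136% to 0.176%. None of the 39 Hox genes was the nearest gene of a member, a share with a Wilson upper limit of 0.240%, against 0.136% of other iHoxc9 domains. A pair of members did lie within the HoxA cluster, 1 of them with its centre in an exon where Hoxa3 and overlapping gene models are annotated, and their nearest starts were those of 5730596B20Rik and Gm28308. The iHoxc9 domain of at least 150 bp in Hoxc9 itself was shared with other lists and was no member, and reads of the transgene there cannot be told apart from those of the native gene.

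Among the 10 members at promoters, the widest, 391 bp, lay 0.53 kb inside C6, a complement gene, with 3 posterior cores, and 25.0 kb or more from any domain of the other lists. Members at the promoters of Hdac4, for a histone deacetylase, and Slc5a12, for a monocarboxylate transporter, also held 3 posterior cores each. Those at Fat4, for an atypical cadherin, at Nadk and at Oxct2a held none, and for Fat4 and Nadk the nearest no Dox domain was 0.012 and 0.025 kb away.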

How the data were processed

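ATAC-seq was carried out in 12 samples in 6 groups of 2. The authors mapped the reads to mm10 and called accessible domains with DomainFinder, and the submitters' processing notes name Bowtie2 2.2.2 and Picard 2.8.2. The deposited lists, 1 per group from both replicates, hold domain starts and ends in bp with no height, read count or p-value, and read depth is unknown. The no Dox list has additional constant columns and a name with another day than its label, so its calling settings may differ. The label was used.

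Starts were taken to count from 0 and are printed counting from 1, with an uncertainty of 1 bp. Unmerged domains of the autosomes, X and Y were compared, and an overlap of 1 bp sufficed. Sequences came from RefSeq GRCm38.p6, which matches mm10, and genes from GENCODE M21. The start of a gene was the 5′ end of its annotated extent, and 21938 protein-coding genes were used. The stretch of a gene was the DNA nearer to its start than to that of another protein-coding gene. Motifs were matched exactly on both strands wholly inside a window, and 3195 flanking windows of equal width, centred 5 kb to either side, had known sequence. Ratios at equal GC content used 5-point bins, with the other iHoxc9 domains weighted to the members. Shares carry 95% Wilson intervals and densities exact Poisson intervals. With 1 list per group, no test was made. Scripts were first tested on simulated intervals and sequences of known content, where 0 of 85 checks differed. Python 3.11.15, NumPy 2.4.6, SciPy 1.17.1, pysam 0.24.0, samtools 1.23.1 and Matplotlib 3.10.9 were used.

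Printed sequences were of members of at most 300 bp outside annotated exons and not on chromosome 18, and 8 of the 11 so chosen are shown: those with the most posterior cores, with the most PBX strings, nearest to motor neuron or cofactor genes, and the member without either Hox core farthest from other domains. Named genes were the 12 nearest to the most members, the 12 with the most members per 100 kb among genes with at least 3, the leading genes of each gene list, and genes with a member within 1 kb of the start, of which some are described. The members and lists were chosen with earlier results of these data known. Other minimum widths, margins, cores, windows and gene sets were tried as alternatives. The order of entries in the lists was not used.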

Additional observations from a re-analysis of the deposited data

How the results depend on the processing

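No paired analysis was possible because each deposited list pools both replicates, and for the same reason no replicate could be left out. No alternative reversed the direction of a ratio, and the shares below are given for the members only. The number of members was 2314, 1099 and 415 at minimum widths of 100, 200 and 300 bp, of which only the last differed by more than 1.5 times, and it lay between 1377 and 2068 when a 500 bp margin was required, when only domains of at least 50 bp excluded, or when the no Dox list was not used for exclusion. The share of members with a posterior core was 78.3% at 100 bp, 90.4% at 200 bp, 96.4% at 300 bp, 88.8% with the 500 bp margin, 95.0% with the core TTAT and 77.6% in the central 150 bp, where windows of other length or strings of fewer letters hold a match more or less often by construction. The ratio of core density to the other iHoxc9 domains was 5.47 at 300 bp, 3.87 with TTAT, 4.28 in the central 150 bp, 2.91 over 1 kb from a gene start and 1.57 at equal GC content. The ratio to windows 5 kb away was 1.22 with TTAT, 1.90 in the central 150 bp and 1.54 when only domains of at least 50 bp excluded, and with windows 2 or 20 kb away it was 1.64 and 1.63. The cause of these differences was not tested beyond the GC comparison. The share of members at promoters was 0.241% at 300 bp, 4.32% within 5 kb and 2.57% with all annotated genes, and the share over 100 kb from a start was 64.3% at 300 bp, 17.8% with all annotated genes and 74.3% at a distance of 50 kb. The unknown read depth limits every statement on absence from a list, and induction and line cannot be told apart for the iHoxc9 list.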

Other observations

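A pair of members lay in the HoxA cluster, which holds genes that pattern the body axis alongside HoxB, HoxC and HoxD, and none lay in the other 3 clusters. The first, 224 bp at chr6:52178427-52178650, had its centre in an exon of a protein-coding gene where Hoxa3 and 2 overlapping gene models, 5730596B20Rik and Gm28308, are annotated, and held 3 posterior cores, 3 central cores and 1 PBX string. The second, 271 bp at chr6:52213268-52213538, lay in an exon of the non-coding gene Hoxaas3, 0.064 kb from the start of Gm28308, and held 4 posterior cores. The nearest domains of the other lists were 0.814 kb or more from the first and 1.22 kb or more from the second. The HoxA, HoxB, HoxC and HoxD clusters held 12, 8, 10 and 12 other iHoxc9 domains of at least 150 bp. Members made up 5.14% of all iHoxc9 domains of that width, and at that share such small counts do not set HoxA apart from the other clusters. These members were singled out after their positions were seen.

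The members were unevenly spread over the chromosomes. Their density ran from 0.140 per Mb on X, with 24 members, to 0.794 per Mb on chromosome 16, and chromosomes 11 and 7, at 0.328 and 0.337 per Mb, had the lowest values of the autosomes. As a share of the iHoxc9 domains of at least 150 bp on the same chromosome, members made up 2.21% (1.63 to 3.00) on chromosome 11 and 7.09% (5.72 to 8.76) on chromosome 16. Chromosome Y held none among 35 such domains, where a count of 0 says little. At the other end of the 6-letter ranking, simple repeats were less dense in the members than 5 kb away: ACACAC had a ratio of 0.286, CACACA 0.357, TATATA 0.378, CCCCCC 0.406 and AAAAAA 0.417.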
